A study of Homo sapiens with 2 samples.

Results

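Keratins are the intermediate filament proteins of epithelial cells. In the gene table of KYSE30 cells sorted by CD44, 55 of 60725 genes were protein coding genes named KRT followed by a number, 29 of type I and 26 of type II, and the keratin-associated proteins (KRTAP) were left out. Of these 55, 13 reached a normalised read count of 20 in at least 1 library, 8 of type I and 5 of type II, and they are described one by one. The members and lists were chosen with earlier results of these data known.

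KYSE30 is an established human esophageal squamous cell carcinoma (ESCC) line, here carrying luciferase and green fluorescent protein (KYSE30-Luc-GFP), grown in vitro and stained with an antibody to the surface receptor CD44. Flow sorting gave the CD44 high group, also labelled CD44 Positive, and the CD44 low group, also labelled CD44 Negative, and poly(A) RNA of each was sequenced as 1 library. With 1 library of 1 line per group there is no replicate check: every comparison is between these libraries, no p-value is given, and intervals cover counting error only. In bulk RNA, fewer cells of a type and less RNA per cell cannot be told apart.

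As background, a keratin filament is built from pairs of 1 type I (acidic) and 1 type II (basic to neutral) chain, and most type I genes lie in a cluster on chromosome 17 and the type II genes in a cluster on chromosome 12. KRT8 with KRT18 or KRT19 is the pair of simple, single-layered epithelia. In stratified squamous epithelium such as that of the esophagus, basal cells make KRT5 with KRT14 and KRT15, cells above them make KRT4 with KRT13, and KRT6, KRT16 and KRT17 are known as keratins of wounding and hyperproliferation.

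Expected counts summed to 21633236 in the CD44 high library, over 20803 genes above 0, and to 22859583 in the CD44 low library, over 21247 genes. CD44 itself had 22819 counts in CD44 high cells and 9727 in CD44 low cells, 2.35-fold higher (95% counting interval 2.29 to 2.41), so the sort left CD44 mRNA in both. Mitochondrially encoded genes took 7.50% of the CD44 high counts and 14.0% of the CD44 low counts. Because TPM (a level scaled by transcript length) divides by the total of a library, the median log2(TPM + 1) difference of all 11870 protein coding genes with at least 1 TPM was 0.17, against 0.01 for the count ratios of 12116 genes. Ratios between libraries are therefore given on counts, and TPM is used for levels and for comparisons between genes. Markers of other cell types were low: the 6 fibroblast markers summed to 4.84 TPM in CD44 high cells and 6.58 TPM in CD44 low cells with 3 of them at 0 in both, the 4 leukocyte markers to 0.47 and 0.32 TPM with 1 at 0, and the 3 endothelial markers to 0.38 and 0.06 TPM.

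Many keratins arose by duplication, and their close copies decide how surely a read can be given to 1 gene. RSEM divides a read that fits several genes among them, which leaves fractional expected counts. Among the 13 genes, 7 had fractional counts (KRT8, KRT18, KRT6A, KRT80, KRT86, KRT16 and KRT14) and 6 had whole counts within 0.05 of a count in both libraries (KRT19, KRT13, KRT15, KRT10, KRT17 and KRT7). In GENCODE release 44 transcripts, 28.3% of the 100-base windows of KRT86 were also found in another gene, mostly KRT81, as were 18.2% of those of KRT6A, mostly in KRT6C. The shares were 7.12% for KRT16 and 6.05% for KRT14, which mostly matched each other, 6.73% for KRT8 and 0.353% for KRT17, and 0 for the other 7. Only exact matches of 1 transcript per gene were counted. KRT18 and KRT80 had fractional counts at a share of 0, so that value does not show that every read fitted 1 gene. KRT6A, KRT6B and KRT6C have coding sequences of 1692 bases, in which KRT6A differs from KRT6B at 42 positions (97.5% identical) and from KRT6C at 35 (97.9%). The KRT14 and KRT16 coding sequences are 88.7% identical where they align.

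The sequences shown here are the coding stretch where the KRT6 copies differ most and the longest stretches that cannot tell copies apart (GRCh38, minus strand, GENCODE release 44, written 5′ to 3′ on the transcript). The most different 60 bases lie in exon 2, coding bases 663 to 722, at chr12:52491555-52491614 (KRT6A), chr12:52450439-52450498 (KRT6B) and chr12:52472099-52472158 (KRT6C), and capitals mark the 9 positions at which the copies are not all the same.
KRT6A: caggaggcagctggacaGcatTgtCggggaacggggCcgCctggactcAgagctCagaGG
KRT6B: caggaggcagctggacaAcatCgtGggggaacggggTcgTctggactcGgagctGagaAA
KRT6C: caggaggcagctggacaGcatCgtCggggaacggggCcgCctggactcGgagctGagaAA
The longest run that all of KRT6A, KRT6B and KRT6C share is 269 bases in exon 1, coding bases 148 to 416 of KRT6A at chr12:52492773-52493041, and a read inside it fits all of them equally.
KRT6A, KRT6B and KRT6C: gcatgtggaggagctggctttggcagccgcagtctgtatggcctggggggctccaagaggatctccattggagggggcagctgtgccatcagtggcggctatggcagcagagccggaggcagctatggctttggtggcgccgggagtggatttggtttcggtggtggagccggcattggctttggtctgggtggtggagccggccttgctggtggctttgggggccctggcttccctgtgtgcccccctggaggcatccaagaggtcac
The longest run that KRT14 and KRT16 share is 158 bases in exon 1, coding bases 310 to 467 of KRT14 at chr17:41586368-41586525.
KRT14 and KRT16: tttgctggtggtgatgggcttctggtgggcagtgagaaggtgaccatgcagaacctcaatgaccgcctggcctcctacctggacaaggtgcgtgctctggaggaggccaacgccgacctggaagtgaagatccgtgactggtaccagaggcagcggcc

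Of the 12 keratins that reached 50 expected counts in either library, 6 were lower by 2-fold or more in CD44 high cells with a counting interval that excluded equality, 0 were higher by as much, and 6 were within 2-fold. Over all 11370 protein coding genes with as many counts, 3.84% (437 genes) were lower and 1.13% (129 genes) were higher by the same rule. On the log2(TPM + 1) scale, 251 protein coding genes were 2-fold lower and 173 were 2-fold higher, so the higher share of such genes was 40.8% there and 22.8% on counts. On that scale 4 keratins were 2-fold lower and 0 were 2-fold higher. The 6 lower keratins were KRT13, KRT6A, KRT17, KRT16, KRT14 and KRT15, which are known from stratified epithelia and their appendages. Of type I, 5 of 8 were lower and the median log2 ratio over the 8 was -1.28 (range -4.47 to 0.54). Of type II, 1 of 4 tested was lower and the median over the 5 described was -0.38 (range -1.93 to 0.31). Over the 13 the median was -0.76, beside 0.01 over all protein coding genes with at least 20 counts.

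**Figure D1:**
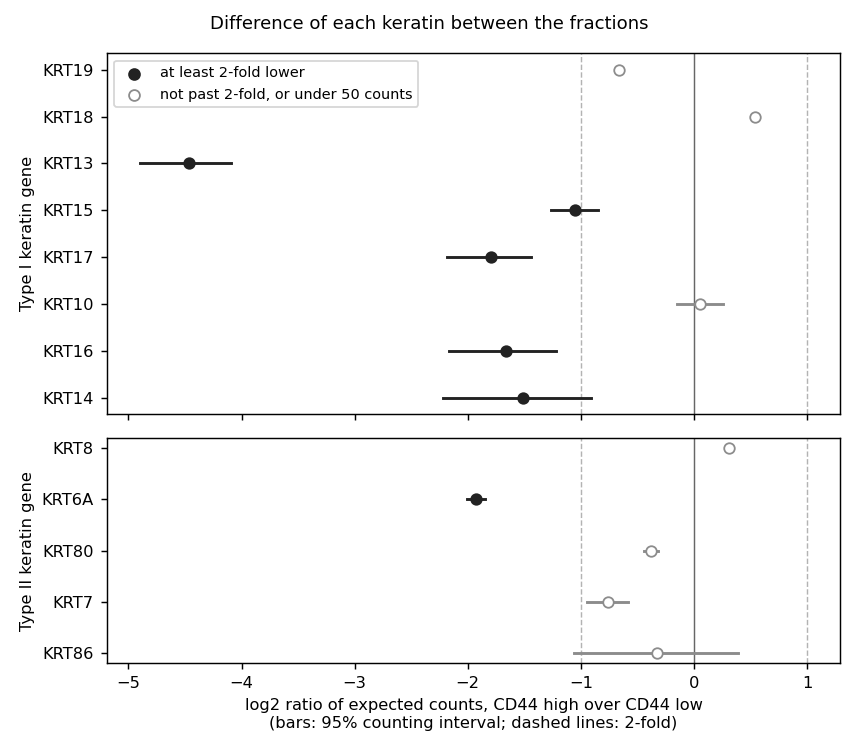
Log2 ratio of expected counts, CD44 high over CD44 low, for the 13 described keratins by type, with 95% counting intervals as bars, dashed lines at 2-fold and filled points for genes at least 2-fold lower. KRT13 lies furthest left at -4.47, KRT18 furthest right at 0.54, and no gene reaches 2-fold higher.

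The plot of log2 ratios shows the 4 described keratins of simple epithelium between the dashed lines, together with KRT10, KRT80 and KRT86, and the other 6 to the left of them. Intervals of KRT8, KRT18 and KRT19 are narrower than their points because each rested on 20577 counts or more in both libraries. Only the intervals of KRT10 and KRT86 include equality.

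The simple epithelial keratins made up nearly all keratin mRNA. KRT8 (chr12:52897187-52949954, minus strand), the type II chain of this pair, had 51019 counts in CD44 high cells and 41130 in CD44 low cells, or 2246 and 1664 TPM. The count ratio was 1.24 (1.23 to 1.26), a difference of 24.2%. KRT18 (chr12:52948871-52952901, plus strand), its usual type I partner and the only type I gene on chromosome 12, had 39063 counts in CD44 high cells against 26900 in CD44 low cells, or 2032 and 1273 TPM. Its ratio of 1.45 (1.43 to 1.48) was the largest of the 13. The CD44 high library was thus higher for both chains of the pair, each by less than 2-fold.

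KRT19 (chr17:41523617-41528308, minus strand), a second type I partner of KRT8, went the other way. It had 20577 counts in CD44 high cells and 32708 in CD44 low cells, 1.59-fold lower (1.56 to 1.62), at 1181 and 1707 TPM. KRT7 (chr12:52232520-52252186, plus strand), a type II keratin of ducts and glands, had 401 counts in CD44 high cells and 680 in CD44 low cells, 1.69-fold lower (1.495 to 1.92). The group thus held 4 of its 5 genes above the minimum, with 2 intervals above equality, 2 below it (KRT7 over all its transcripts) and no gene past 2-fold. The remaining gene, KRT20 of the gut lining, had 0 counts in CD44 high cells, which allows up to 3, and 1 count in CD44 low cells.

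By TPM rank among protein coding genes, KRT8 stood at 54 in CD44 high cells and 66 in CD44 low cells. KRT18 stood at 67 in CD44 high cells and 94 in CD44 low cells, and KRT19 at 125 and 63. These places put all of them near the top of both libraries, with KRT19 above KRT18 in CD44 low cells only.

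**Figure D2:**
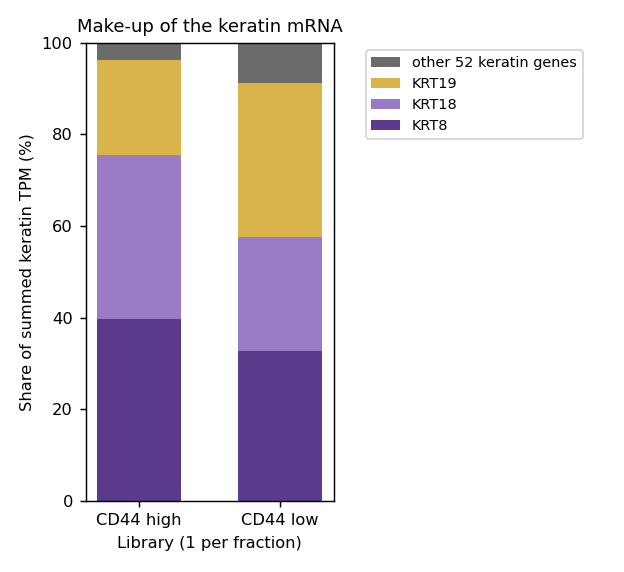
Share of the summed keratin TPM, in percent, taken by KRT8, KRT18, KRT19 and the other 52 keratin genes in CD44 high cells (left) and the CD44 low library (right). KRT8 with KRT18 took 75.5% of keratin TPM in CD44 high cells and 57.6% in CD44 low cells, and the other 52 genes took 3.69% and 8.88%.

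KRT8, KRT18 and KRT19 together took 94.4% of all keratin counts in CD44 high cells (exact binomial interval 94.3 to 94.5) and 87.7% in CD44 low cells (87.5 to 87.9). KRT19 alone took 17.6% in CD44 high cells (17.3 to 17.8) and 28.5% in CD44 low cells (28.2 to 28.7). The other 52 keratins summed to 6578 counts in CD44 high cells and 14148 in CD44 low cells, 2.15-fold lower (2.09 to 2.21). The stacked shares show the same shift per length: the KRT19 layer and the layer of minor keratins are both thinner in CD44 high cells. By counts, KRT6A and KRT80 held most of that minor layer in both libraries. By TPM, KRT7 also held a large part, at 52.5 in CD44 high cells and 78.4 in CD44 low cells. Nearly all of that KRT7 level lay on transcripts not annotated as protein coding.

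KRT6A was the most abundant keratin among those at least 2-fold lower. KRT6A (chr12:52487174-52493257, minus strand), a type II keratin of activated keratinocytes, had 1528 expected counts in CD44 high cells against 5816 in CD44 low cells, 3.80-fold lower (3.59 to 4.03). Its level was 50.5 TPM in CD44 high cells, at TPM rank 2878, and 179.6 TPM in CD44 low cells, at rank 565. The copies whose sequences are printed above held few of the reads: KRT6B had 7.02 counts in CD44 high cells and 14.4 in CD44 low cells, and KRT6C had 1.22 and 1.02. The sum of KRT6A, KRT6B and KRT6C does not rest on how reads were divided among them, and it was 1536 counts in CD44 high cells and 5831 in CD44 low cells, 3.79-fold lower (3.58 to 4.01).

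The type I partners of KRT6A were scarce beside it. KRT17 (chr17:41619437-41624842, minus strand), a keratin of wounds and skin appendages, had 79 counts in CD44 high cells and 276 in CD44 low cells, 3.49-fold lower (2.71 to 4.54). KRT16 (chr17:41609778-41615899, minus strand), induced with KRT6 in wounded epidermis, had 51.4 expected counts in CD44 high cells and 164.1 in CD44 low cells, 3.19-fold lower (2.33 to 4.49). All 3 described members of the wound and activation group were therefore lower, with overlapping intervals for their ratios, and the remaining 2 of its 5 genes, KRT6B and KRT6C, were under 20 counts. By TPM, KRT16 stood at 0.054 of KRT6A in CD44 high cells and 0.044 in CD44 low cells, and KRT17 at 0.079 and 0.085.

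KRT16 has close pseudogenes, and these carried reads. The 6 annotated KRT16 pseudogenes summed to 30.3 counts in CD44 high cells and 105.01 in CD44 low cells, 58.9% and 64.0% of the counts of KRT16 itself. Most came from KRT16P6, with 20 counts in CD44 high cells and 81 in CD44 low cells. KRT16 with its pseudogenes had a ratio of 0.304, beside 0.313 for the gene alone, so the difference between the libraries was of the same size either way. The 50 KRT8 pseudogenes held 589.9 counts in CD44 high cells and 525.3 in CD44 low cells, no more than 1.28% of the counts of KRT8.

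Of the 13 described keratins, KRT13 had the ratio furthest from equality. KRT13 (chr17:41500981-41505705, minus strand), the type I keratin of the suprabasal layers of esophageal and oral mucosa, had 55 counts in CD44 high cells and 1229 in CD44 low cells, 22.3-fold lower (17.0 to 29.8). Its level was 2.82 TPM in CD44 high cells, at TPM rank 10451, and 52.2 TPM in CD44 low cells, at rank 2391. Its counts were whole and no 100-base window of its transcript was found in another gene. KRT4, the type II chain that pairs with KRT13 in mucosa, had 0 counts in CD44 high cells and 3 in CD44 low cells, so KRT13 mRNA stood almost without that of its usual partner even where it was high. It was the only one of 5 mucosal suprabasal keratins above the minimum.

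Of the keratins of the basal layer, KRT5 and KRT14 did not pass 3.33 TPM in either library and KRT15 stood above both. KRT5, a marker of the basal layer named here for the check of the label, had 0 counts in CD44 high cells and 8 in CD44 low cells (0 and 0.54 TPM). KRT14 (chr17:41582279-41586921, minus strand), its type I partner, had 28.4 expected counts in CD44 high cells and 81.9 in CD44 low cells, 2.88-fold lower (1.88 to 4.67), at 1.37 and 3.33 TPM. KRT15 (chr17:41513743-41522529, minus strand), the other basal type I keratin, had 292 counts in CD44 high cells and 608 in CD44 low cells, 2.08-fold lower (1.81 to 2.40). Its level was 11.6 and 21.3 TPM over all its transcripts, most of it outside those annotated as coding. Both described basal keratins were thus lower in CD44 high cells, and the interval of each extends under 2-fold. Both fell short of 2-fold on the log2(TPM + 1) scale, at -0.82 for KRT15 and -0.87 for KRT14, and KRT15 also did when scaled by total counts, at -0.98. Of the 5 squamous markers (KRT13, KRT6A, KRT17, KRT14 and KRT5), KRT5 alone was below the minimum in both libraries.

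KRT14 and KRT16 share the run printed above, while the longest runs of KRT17 shared with them are 59 bases (KRT14) and 61 bases (KRT16). The sum of KRT14, KRT16 and KRT17 was 158.7 counts in CD44 high cells and 522.0 in CD44 low cells, 3.28-fold lower (2.74 to 3.94). Along the chromosome 17 cluster, the described genes KRT13, KRT15 and KRT19 follow each other with log2 ratios of -4.47, -1.06 and -0.67, and KRT14, KRT16 and KRT17 come after them with -1.51, -1.67 and -1.80.

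**Figure D3:**
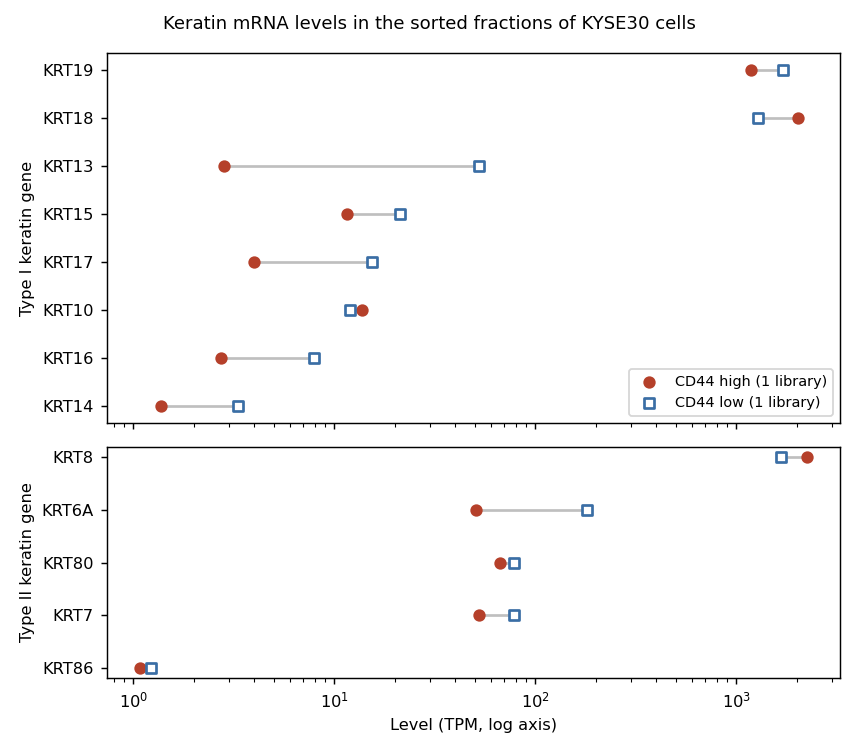
Level in TPM on a log axis for the 13 described keratins by type, with filled circles for the CD44 high library and open squares for the CD44 low library, 1 library each. KRT8, KRT18 and KRT19 lie above 1000 TPM in both libraries, and the widest gap is that of KRT13, at 2.82 TPM in CD44 high cells and 52.2 TPM in CD44 low cells.

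The remaining described keratins differed less. KRT10 (chr17:40818117-40822595, minus strand), the type I keratin of cornifying epidermis, had 401 counts in CD44 high cells and 387 in CD44 low cells, a ratio of 1.04 (0.900 to 1.196). Its partner KRT1 had 1 count in each. KRT80 (chr12:52168996-52192000, minus strand), a type II keratin found near desmosomes, had 3675 counts in CD44 high cells and 4798 in CD44 low cells, 1.30-fold lower (1.25 to 1.36). KRT86 (chr12:52249300-52309163, plus strand), a type II hair keratin and the only one of 26 hair and inner root sheath genes above the minimum, had 31.02 expected counts in CD44 high cells and 39.2 in CD44 low cells. That is a ratio of 0.79 (0.48 to 1.31), a difference not detectable at this depth, and KRT86 was under the 50 counts needed for the 2-fold rule. The plot of levels puts KRT86 lowest of the 13, just above 1 TPM in both libraries.

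The other 42 keratins were below 20 normalised counts in both libraries, and 24 of them were at 0 in both. They summed to 36.2 counts in CD44 high cells and 69.2 in CD44 low cells, with no single level above 0.91 TPM. Of the 18 above 0, 9 were above 0 in both libraries, 2 in CD44 high cells only and 7 in CD44 low cells only. KRT23, a type I keratin, fell just outside the minimum with 3 counts in CD44 high cells and 20 in CD44 low cells, where scaling put it slightly under 20. Its counts were 6.66-fold lower (1.98 to 35.0). KRT86 was the described gene nearest to that limit. KRT81, a hair keratin, had 7.97 counts in CD44 high cells and 8.79 in CD44 low cells, and KRT32, KRT2, KRT9 and KRT83 had between 1 and 4 counts in each library.

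Type I and type II chains pair one to one in protein, and their summed mRNA levels were compared per length over all 55 genes. Type I summed to 3250 TPM in CD44 high cells and 3093 TPM in CD44 low cells, and type II summed to 2418 and 2003 TPM. Type I was 1.34 times type II in CD44 high cells and 1.54 times in CD44 low cells. On expected counts, the type I sum had a ratio of 0.972 (0.961 to 0.983) and the type II sum a ratio of 1.08 (1.07 to 1.09) between the libraries. The type I sum was thus 1.05 times as high by TPM and slightly lower by counts, so its direction depended on the scaling. With mitochondrial genes left out of the TPM total, the ratio was 0.891 for type I and 1.02 for type II. Keratins as a whole took 0.542% of all counts in CD44 high cells (0.539 to 0.545) and 0.503% in CD44 low cells (0.4997 to 0.5055). The sum over all keratins had a ratio of 1.11 by TPM and 1.02 on scaled counts, and of 0.943 by TPM without mitochondrial genes, so its direction also depended on the scaling.

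Within pairs, KRT18 stood at 0.905 of KRT8 by TPM in CD44 high cells and 0.765 in CD44 low cells. KRT19 stood at 0.526 of KRT8 in CD44 high cells and 1.03 in CD44 low cells. Relative to KRT8, the CD44 high library thus held more KRT18 and less KRT19. In CD44 low cells the KRT19 and KRT8 levels were nearly equal by TPM over all transcripts. That near equality depends on the measure: KRT19 had 32708 counts there and KRT8 had 41130. Coding transcripts held 93.2% of KRT19 TPM and 78.0% of KRT8 TPM in CD44 low cells. The TPM ratios are of levels within a library, which the scaling between libraries does not touch.

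The deposited transcript table shows where on each gene the counts lay. For KRT7, 1 of its 6 transcripts with counts is annotated as protein coding (ENST00000331817), and it held 5.28 expected counts in CD44 high cells and 10.4 in CD44 low cells, 1.32% and 1.53% of the counts of the gene. Most KRT7 counts fell on ENST00000552322 (chr12:52244378-52248855), a transcript in the 3′ part of the gene with no defined coding sequence, with 284.9 counts in CD44 high cells and 518.2 in CD44 low cells. The KRT7 values above are therefore counts of the locus, with few counts assigned to its full coding mRNA in either library. On the coding transcript alone the ratio was 0.51 (0.134 to 1.61), an interval that includes equality. The gene span of KRT86 overlaps KRT7 by 2887 bases on the same strand. The transcript that held all KRT86 counts (chr12:52301865-52309163) lies outside KRT7, and KRT7 had whole counts in both libraries. Whether the overlap bears on the KRT7 counts was not tested.

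**Figure D4:**
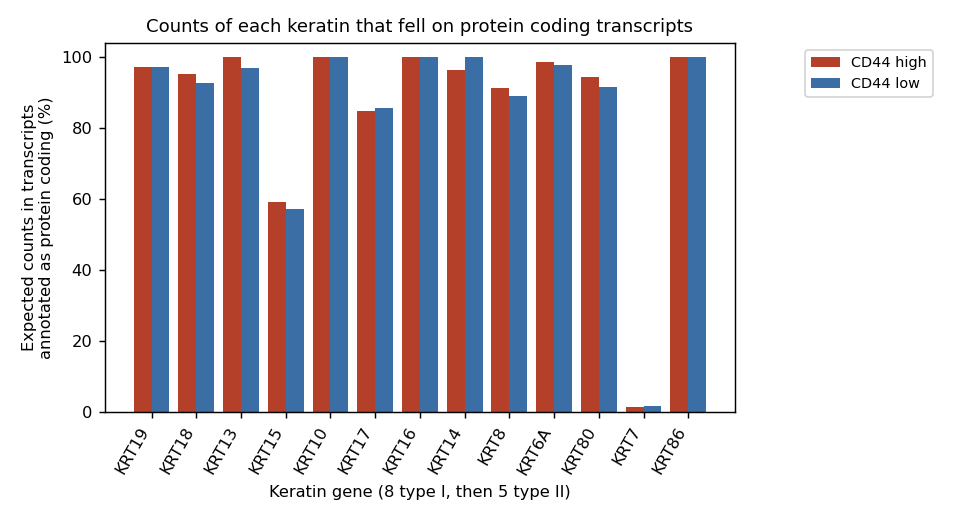
Share, in percent, of the expected counts of each described keratin that lay on transcripts annotated as protein coding in GENCODE release 44, with the CD44 high library at left and the CD44 low library at right in each pair of bars. KRT7 is near 0 in both libraries, KRT15 is at 59.2% in CD44 high cells and 57.2% in CD44 low cells, and the others are above 80%.

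KRT15 was the other gene with a large part of its counts outside coding transcripts, as the bars of coding share show. By TPM the coding share of KRT15 was smaller, at 29.5% in CD44 high cells and 28.3% in CD44 low cells. Its coding transcripts held 173.0 counts in CD44 high cells and 347.6 in CD44 low cells, 2.01-fold lower, close to the 2.08-fold of the whole gene. For KRT13 the coding transcripts had 55 counts in CD44 high cells and 1190 in CD44 low cells, 21.6-fold lower. Over the 8 keratins with at least 200 counts in both libraries, 50 transcripts were above 0 and 0 of them changed their share of the gene's TPM by 30 percentage points or more. The largest difference among these was 28.6 points, for a KRT15 transcript with a retained intron (ENST00000463447) that rested on 46.1 counts in CD44 high cells and 24.4 in CD44 low cells. KRT17, with 79 counts in CD44 high cells, is outside this set. Its coding transcript ENST00000463128 took 0% of KRT17 TPM in CD44 high cells and 30.4% in CD44 low cells, on 0 and 38.8 counts.

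KRT8 and KRT18 lie next to each other on opposite strands and their annotations overlap by 1084 bases. A KRT8 transcript that reaches across into KRT18 (ENST00000552551) held 2187 counts in CD44 high cells and 1778 in CD44 low cells, 3.34% and 3.30% of KRT8 TPM. KRT10 overlaps TMEM99 on the opposite strand by 3490 bases, and both genes had whole counts in each library. The gene span of KRT86 overlaps that of KRT81 on the opposite strand by 5622 bases. The transcript that held all KRT86 counts (chr12:52301865-52309163) lies outside KRT81 (chr12:52285913-52291534). The sources used here do not give whether counting used strand, so reads in the KRT8 and KRT18 overlap may not be told apart by strand.

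Genes for filaments of other families and for proteins that link or cross-bridge keratins, at the membrane or elsewhere, were examined in the same way. Of 16 other intermediate filament genes, 8 were measured with at least 50 counts, 1 was higher by 2-fold or more in CD44 high cells, 0 were lower, and their median log2 ratio was 0.10. The shares over all protein coding genes were 1.13% higher and 3.84% lower, so 0 of 8 lower is near that background. The higher gene was VIM, which encodes the vimentin of mesenchymal cells, with 909 counts in CD44 high cells and 110 in CD44 low cells, 8.27-fold higher (6.78 to 10.2). At 37.1 TPM in CD44 high cells and 4.02 TPM in CD44 low cells, vimentin mRNA stayed far under that of KRT8. LMNA, which encodes the lamins A and C of the nuclear lining, had 16133 counts in CD44 high cells and 15003 in CD44 low cells (log2 ratio 0.11), and LMNB2 had 5842 and 5284 (0.15).

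**Figure D5:**
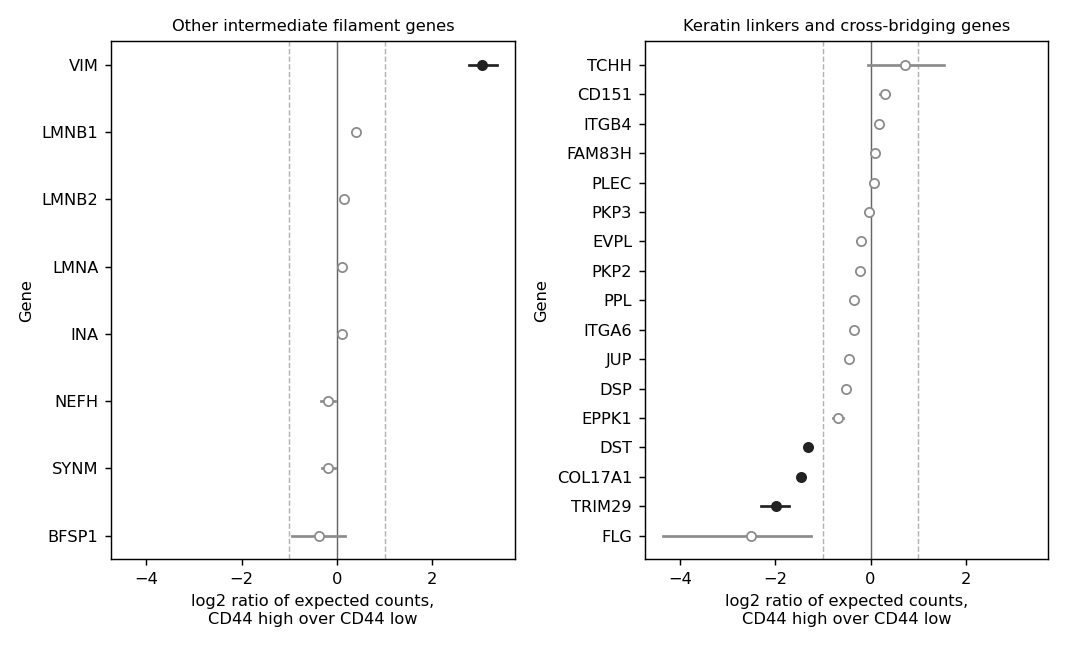
Log2 ratio of expected counts, CD44 high over CD44 low, with 95% counting intervals, for the other intermediate filament genes (left) and the keratin linkers (right) with at least 20 counts in a library, with dashed lines at 2-fold and filled points for genes past the 2-fold rule. VIM is the filled point at right of equality, at 3.04, and DST, COL17A1 and TRIM29 are the filled points at its left.

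Of 20 keratin linkers and cross-bridging genes, 15 had at least 50 counts in a library, 3 were at least 2-fold lower in CD44 high cells, 0 were higher and 12 were within 2-fold, with a median log2 ratio of -0.34 over the 17 with at least 20 counts. Over all protein coding genes, 3.84% were lower and 1.13% higher. COL17A1, a transmembrane collagen of hemidesmosomes (the junctions that anchor keratin to the basement membrane), had 9240 counts in CD44 high cells and 25246 in CD44 low cells, 2.73-fold lower (2.66 to 2.80). DST, whose epithelial form links keratin to hemidesmosomes, had 16261 counts in CD44 high cells and 40230 in CD44 low cells, 2.47-fold lower (2.43 to 2.52). The DST counts are of the whole gene, and its epithelial form was not examined apart. TRIM29 had 123 counts in CD44 high cells and 489 in CD44 low cells, 3.97-fold lower (3.25 to 4.88). The integrin chains of the hemidesmosome did not follow COL17A1 and DST past 2-fold: ITGB4 had 34336 counts in CD44 high cells and 30463 in CD44 low cells (log2 ratio 0.17), and ITGA6 had 24125 and 30669 (-0.34). The plot of both lists shows all plakin, desmosome and integrin genes other than DST between the dashed lines.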

How the data were processed

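Groups were taken from the labels. Per the methods of the study, the authors mapped paired reads to GRCh38 with STAR and quantified them with RSEM. The deposited values are expected counts divided by a size factor, and TPM. The authors' fold change (a linear ratio) and FDR (a q-value) were not used. Whether duplicates were removed by molecular identifiers, and which annotation release was used, the sources used here do not give.

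In each deposited column the smallest step gave back the counts before scaling (largest deviation 2.83e-07 of a step), and 0 other columns of per-sample values were used. Median-of-ratios size factors (0.999 in CD44 high, 1.00 in CD44 low) scaled the counts, and log2 ratios have a prior count of 0.5. Ratios have 95% Clopper-Pearson intervals, from the exact binomial split of their rounded counts between the libraries. A gene was counted as higher or lower with at least 50 counts in a library, a 2-fold ratio and an interval excluding equality. Shares carry exact binomial intervals.

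Members and lists were chosen with earlier results of these data known. The text names each keratin with at least 20 normalised counts in a library and, below that, those above 0 in both libraries. From the other lists it names genes past the 2-fold rule and up to 2 more with the largest counts. KRT4, KRT5, KRT20 and TMEM99 are named beside these for a partner, a marker, a group and an overlap. Transcript biotypes, exons and sequences are from GENCODE release 44 (GRCh38). Alternatives were TMM (edgeR 4.0.16, R 4.3.3), total counts, log2(TPM + 1), a prior count of 5, thinning to equal depth, other count minimums and folds, and summed paralogs or pseudogenes. Python 3.11.15, numpy 2.4.6, pandas 2.3.3, scipy 1.17.1 and matplotlib 3.10.9 were used.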

Additional observations from a re-analysis of the deposited data

How the results depend on the processing

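No paired analysis was possible because each group has 1 library, and no library could be left out for the same reason. Of 158 alternatives, 138 kept the direction and the side of the threshold or moved by less than the limit set for that value. Another 13 moved further, 4 reversed and 3 fell under 2-fold. The 138 include the changes in the number of lower keratins given below, and counts of genes that stayed at 0. Under every alternative, 0 keratins were higher by the fold rule, while KRT8 and KRT18 stayed higher by less. Among single keratins, KRT15 was under 2-fold on total counts (log2 ratio -0.98) and on log2(TPM + 1) (-0.82), and KRT14 was under 2-fold on log2(TPM + 1) (-0.87). The number of lower keratins, 6, was 5 on total counts, 4 on log2(TPM + 1), 7 with a minimum of 20 counts (KRT23 was added), 4 with a minimum of 200 counts, 8 at 1.5-fold and 4 at 3-fold. The lower linkers numbered 3, and 1 at 3-fold. Apart from log2(TPM + 1), the share over all protein coding genes was not taken at these settings, so these numbers stand without a background. The type I median of -1.28 was -0.85 on log2(TPM + 1), -0.86 with at least 200 counts and -0.86 with paralogs summed. The type II median of -0.38 was -0.31 on total counts and -0.23 on log2(TPM + 1). The median of the other intermediate filament genes, 0.10, was 0.18 and 0.29 under these scales, and that of the linkers, -0.34, was -0.26 and -0.20. The type I sum, 1.05 times as high by TPM, reversed to 0.972 by counts, to 0.891 without mitochondrial genes and to 0.669 without KRT18, its member with the highest TPM. It was 1.49 without KRT19, the highest in CD44 low cells, an alternative chosen after seeing the data. The type II sum, 1.21 times as high by TPM, was 1.08 by counts and 1.02 without mitochondrial genes, and reversed to 0.508 without KRT8. Beyond the smaller set of members and the change of scale themselves, the cause of these moves was not tested. Depth limits the genes under 50 counts most: the interval of KRT86 spans 0.48 to 1.31.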
